A study of Mus musculus with 4 samples.

Results

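The genes described here are 10 genes known for their work in the fat cell, listed by name, with earlier results of these data known: Adipoq, Cfd, Cidec, Plin1, Plin4, Fabp4, Car3, Lpl, Pparg and Lipe. All 10 were found among the 17505 genes of the expression table. The working name of the set traces it to mesenteric fat, the fat that lies along the gut, but the labels name only intestine, and where the RNA came from was not tested. Intestines were taken from Vil-CREPT-KO mice (2 libraries) and from WT mice (2 libraries), all of strain C57BL/6 and all given 10 Gy of X-rays and left to regenerate for 3 days. In Vil-CREPT-KO mice a villin promoter drives Cre in the gut epithelium and removes the floxed exon 3 of CREPT, the gene listed as Rprd1b. By this design cells outside the epithelium, fat cells among them, should keep the gene. No sample without irradiation was analysed here, and male and female mice 6 to 8 weeks old were in use in the study, with no age or sex given for a single library. The stretch of gut and the way fat was trimmed from it were not given in the labels or methods.

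Fat cells store triglyceride in a single large droplet and release it as fatty acids when the body needs fuel. Their genes are switched on by the nuclear receptor Pparg together with proteins of the C/EBP family. Adipoq (the hormone adiponectin) and Cfd (adipsin, complement factor D) are secreted products, Plin1, Plin4 and Cidec coat or fuse lipid droplets, Fabp4 carries fatty acids inside the cell, and Lpl frees fatty acids from circulating triglyceride. Lipe (hormone-sensitive lipase) breaks stored lipid down, and Car3 is a carbonic anhydrase abundant in fat. Some of the 10 are made by other cells too. Fabp4 and Lpl are known from blood vessel cells and macrophages, and Pparg from the gut epithelium.

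The stretches upstream of 5 of these genes are shown because the genes fell into different patterns across the libraries, described next. They are the 250 bases before the annotated start, from RefSeq on build GRCm38.p6, and 7 of the 10 genes had an entry. Fabp4, Car3 and Lpl are named only. Adipoq, Cfd and Plin1 had their top level in Vil-CREPT-KO 1, whereas Cidec and Pparg had their lowest level there. Adipoq lies at chr16:23146286-23146535 (plus strand), Cfd at chr10:79890603-79890852 (plus), Plin1 at chr7:79732777-79733026 (minus), the first of 2 starts of Cidec at chr6:113435761-113436010 (minus) and the third of 3 starts of Pparg at chr6:115421816-115422065 (plus). Capitals mark matches, on either strand, to CCAAT, to TTGCNNAA (a form of the C/EBP site), to TATAAA and to AGGTCA (the nuclear receptor half-site).
Adipoq: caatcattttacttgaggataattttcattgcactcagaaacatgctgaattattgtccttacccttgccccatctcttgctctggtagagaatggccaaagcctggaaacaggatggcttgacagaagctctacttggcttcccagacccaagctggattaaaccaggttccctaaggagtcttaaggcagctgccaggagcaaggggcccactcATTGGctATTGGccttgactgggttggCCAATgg
Cfd: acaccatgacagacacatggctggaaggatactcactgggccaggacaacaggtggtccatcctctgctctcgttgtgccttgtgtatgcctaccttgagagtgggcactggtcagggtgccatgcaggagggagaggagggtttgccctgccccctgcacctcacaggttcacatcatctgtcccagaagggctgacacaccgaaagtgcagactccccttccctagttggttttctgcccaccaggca
Plin1: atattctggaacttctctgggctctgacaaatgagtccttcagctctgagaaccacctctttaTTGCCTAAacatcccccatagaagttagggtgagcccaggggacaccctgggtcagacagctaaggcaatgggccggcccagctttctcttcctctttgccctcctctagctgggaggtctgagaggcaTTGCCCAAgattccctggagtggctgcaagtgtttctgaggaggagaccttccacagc
Cidec start 1: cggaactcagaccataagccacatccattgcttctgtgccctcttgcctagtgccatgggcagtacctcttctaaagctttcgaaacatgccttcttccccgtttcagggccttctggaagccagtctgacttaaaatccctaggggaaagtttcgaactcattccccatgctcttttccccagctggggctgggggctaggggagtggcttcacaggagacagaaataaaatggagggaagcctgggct
Pparg start 3: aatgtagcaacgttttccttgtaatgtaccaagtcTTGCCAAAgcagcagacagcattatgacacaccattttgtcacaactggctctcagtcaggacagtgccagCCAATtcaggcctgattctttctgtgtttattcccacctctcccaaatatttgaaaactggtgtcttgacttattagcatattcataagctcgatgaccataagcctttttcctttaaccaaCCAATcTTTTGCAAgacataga

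Adipoq held 3 CCAAT matches, the nearest 7 bases before the start. Plin1 held 2 C/EBP matches, 187 and 58 bases before it, and the third start of Pparg held 2 C/EBP and 2 CCAAT matches. Cfd and the first start of Cidec held none of the 4 words, and the second start of Cidec held 1 C/EBP match. Of 32851 such windows over the genome, 33.8% held CCAAT, 14.0% held AGGTCA, 12.4% held TATAAA and 9.56% held TTGCNNAA. The PPAR element, a half-site repeated after 1 base, was searched for in a looser form that let 1 base of each half-site vary. That form was found in 0.338% of all windows, and in none of the windows of these 7 genes. A match is a match of letters only. No overlap was found between CCAAT and C/EBP matches within a window.

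The level of every gene is given in FPKM, which is the number of fragments scaled by transcript length and by library depth. From the spacing of the lowest values, each library held about 17400000 to 18300000 fragments, although only 56.9 to 64.7% of these values came within 0.1 of a whole fragment, so the fragment numbers quoted are approximate. The targeted gene was examined first. Rprd1b had 4.01 and 3.93 FPKM in Vil-CREPT-KO, against 5.99 and 7.19 FPKM in WT, so the groups did not overlap. Its log2 fold change was -0.61 ± 0.15 (SE), with an adjusted p of 0.129 by limma. Both Vil-CREPT-KO libraries lay under both WT libraries for 22.1% of all genes tested, so this order alone does not settle the labels. The libraries also differed in genes listed as markers of pancreas and stomach, whose source was not tested. The 16 pancreatic acinar genes summed to 107 FPKM in Vil-CREPT-KO 1 and 12602 FPKM in Vil-CREPT-KO 2, against 23385 FPKM in WT 1 and 8365 FPKM in WT 2. The 11 genes of stomach mucous and gland cells summed to 26.9 and 115 FPKM in Vil-CREPT-KO, against 39505 and 42595 FPKM in WT, and all 11 were called lower. Genotype and the piece of tissue sampled therefore cannot be told apart for genes that differ between these tissues.

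A gene was tested when its mean over the 4 libraries was at least 1 FPKM, and called when its adjusted p was under 0.05 and its log2 fold change beyond 1 in either direction. The fold change is that of FPKM + 1, which makes changes of low genes look smaller than they are. Of the 10 adipocyte genes, 9 were tested, and 0 were called higher or lower in Vil-CREPT-KO by limma, where 2.07% of the 11621 genes tested were called. An unadjusted p under 0.05 was reached by 2 of the 9, Lpl and Pparg, and by 20.2% of all genes tested, so this share is near the background. The median log2 fold change of the 9 genes was 0.32, beside 0.06 over all genes tested, and 6 of the 9 lay above 0. Adipoq and Plin4 reached the minimum only through their level in Vil-CREPT-KO 1. Plin1, with a mean of 0.155 FPKM, was not tested.

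**Figure D1:**
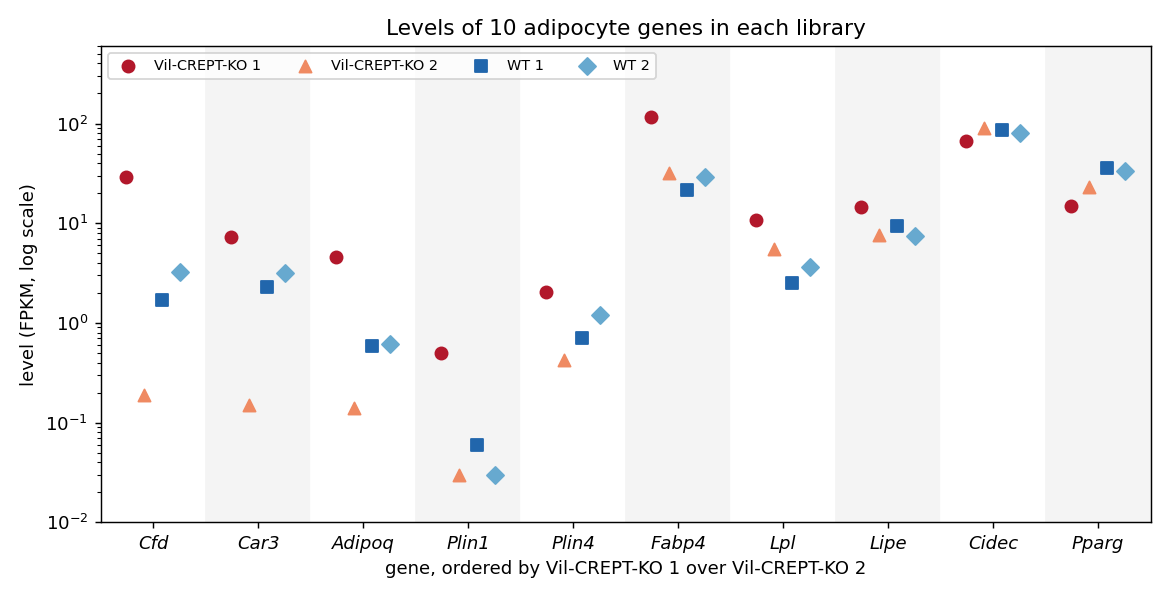
Level of each of the 10 genes (FPKM, log scale) in each library, with Vil-CREPT-KO 1 and 2 left of WT 1 and 2 within each gene and genes ordered by the ratio of Vil-CREPT-KO 1 to Vil-CREPT-KO 2. Points are single libraries. Cfd, Car3 and Adipoq spread most, with Vil-CREPT-KO 1 at the top and Vil-CREPT-KO 2 at the bottom, whereas Cidec stayed between 67.4 and 90.0 FPKM.

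The secreted products differed more between the 2 Vil-CREPT-KO libraries than between the genotypes. Adipoq, the hormone by which fat tissue is most often recognised, had 4.55 FPKM in Vil-CREPT-KO 1 and 0.14 FPKM in Vil-CREPT-KO 2, against 0.59 and 0.61 FPKM in the WT libraries. The 2 WT libraries were nearly equal and lay between the 2 Vil-CREPT-KO libraries, which stood 32.5-fold apart. In fragments this was about 104 and 3 in Vil-CREPT-KO and about 14 and 13 in WT, with 1 fragment worth 0.0442 FPKM. The log2 fold change was 0.65 ± 0.73 (SE), with a 95% confidence interval from -1.22 to 2.53 and an adjusted p of 0.651.

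Cfd, the protease that starts the alternative complement pathway and is made in bulk by fat cells, showed the widest spread of the 10. Its level was 29.33 and 0.19 FPKM in Vil-CREPT-KO, against 1.70 and 3.27 FPKM in WT. The 2 Vil-CREPT-KO libraries were 154-fold apart and enclosed both WT libraries. The log2 fold change was 0.82 ± 1.49 (SE), with an interval from -2.98 to 4.63 and an adjusted p of 0.788. Over all genes tested, only 1 had a larger excess of Vil-CREPT-KO 1 over Vil-CREPT-KO 2 on the log2 scale than Cfd, and 20 had a larger one than Adipoq.

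Car3 followed the same order. It had 7.26 and 0.15 FPKM in Vil-CREPT-KO, against 2.30 and 3.20 FPKM in WT, or about 217 and 4 fragments against about 70 and 92. Vil-CREPT-KO 2 held 5.45% of the WT mean, the lowest share among the 10 genes, while Vil-CREPT-KO 1 held 2.64 times that mean. The log2 fold change was -0.27 ± 0.91 (SE), with an interval from -2.60 to 2.06 and an adjusted p of 0.889.

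The droplet proteins divided. Plin1, the perilipin of the fat cell droplet and the gatekeeper of its lipases, was close to the limit of measurement, with 0.50 and 0.03 FPKM in Vil-CREPT-KO, against 0.06 and 0.03 FPKM in WT. Only Vil-CREPT-KO 1, with about 25 fragments, stood clear of the 1 to 3 fragments of the other libraries. Plin4, a perilipin of nascent droplets, had 2.02 and 0.42 FPKM in Vil-CREPT-KO, against 0.70 and 1.19 FPKM in WT. Again the WT libraries lay inside the Vil-CREPT-KO pair, and the log2 fold change was 0.10 ± 0.39 (SE), with an interval from -0.90 to 1.1 and an adjusted p of 0.905.

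Cidec, which lets small droplets pass their lipid into large ones, did not share this pattern. It had 67.42 and 90.02 FPKM in Vil-CREPT-KO, against 86.31 and 80.83 FPKM in WT. It was abundant in all 4 libraries, and lowest in the library where Adipoq was highest. The log2 fold change was -0.10 ± 0.19 (SE), and the interval, from -0.60 to 0.40, leaves out any change in level as large as the calling limit. Within a library Cidec stood at 14.8 times the level of Adipoq in Vil-CREPT-KO 1 and 643 times in Vil-CREPT-KO 2, against 146 and 133 times in WT, on the FPKM scale. The ratio thus varied 43.4-fold among the libraries.

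The lipid carrier and the lipase of the vessel wall exceeded WT in each Vil-CREPT-KO library. Fabp4 had 115.61 and 32.12 FPKM in Vil-CREPT-KO, against 21.36 and 28.85 FPKM in WT. The groups did not overlap, but Vil-CREPT-KO 2 exceeded the upper WT library only slightly, and the group means were 73.9 ± 59.0 and 25.1 ± 5.30 FPKM (SD, n = 2 each). The log2 fold change was 1.27 ± 0.60 (SE), with an interval from -0.27 to 2.80 and an adjusted p of 0.315. Lpl had 10.85 and 5.55 FPKM in Vil-CREPT-KO, against 2.54 and 3.62 FPKM in WT, again without overlap. Its log2 fold change of 1.12 ± 0.32 (SE) had an interval from 0.30 to 1.95 and an adjusted p of 0.157. Among all genes tested 31.9% had both Vil-CREPT-KO libraries above both WT libraries, so 2 of 9 is not more than the share of other genes.

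The receptor that drives the fat cell program was on the other side. Pparg had 14.89 and 23.23 FPKM in Vil-CREPT-KO, against 35.40 and 33.27 FPKM in WT. Both Vil-CREPT-KO libraries lay under both WT libraries, which was so for 22.1% of all genes tested and for this 1 of the 9 genes. The log2 fold change was -0.85 ± 0.23 (SE), with an interval from -1.44 to -0.25 and an adjusted p of 0.149. Its lowest level was in Vil-CREPT-KO 1, the library with the most Adipoq, Cfd and Fabp4.

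Lipe had 14.51 and 7.65 FPKM in Vil-CREPT-KO, against 9.33 and 7.39 FPKM in WT. Vil-CREPT-KO 1 was highest and the other 3 libraries lay within 2 FPKM of each other, with a log2 fold change of 0.32 ± 0.31 (SE), an interval from -0.48 to 1.11 and an adjusted p of 0.603. Exons of Lipe share 918 bases, or 15.6% of its exonic bases, with 4732471J01Rik on the opposite strand. Whether the counting used strand was not given in the labels or methods, so reads of these bases could belong to either gene.

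**Figure D2:**
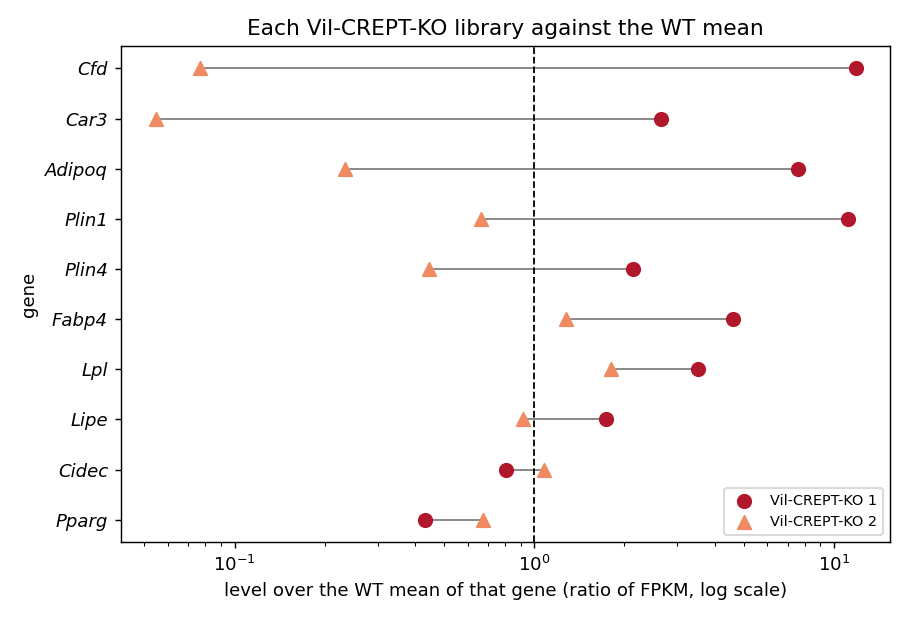
Level of each gene in Vil-CREPT-KO 1 and in Vil-CREPT-KO 2, each divided by the WT mean of that gene (ratio of FPKM, log scale, dashed line at 1). A line joins the 2 libraries of a gene: it crosses 1 for 7 of the 10 genes, lies above 1 for Fabp4 and Lpl and below 1 for Pparg.

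By level, Cidec, Pparg and Fabp4 led in both WT libraries, followed by Lipe. Lpl was next in both, at 2.54 and 3.62 FPKM. Car3 and Cfd, at 1.70 to 3.27 FPKM, changed places between the 2 WT libraries, so their order there is within the spread. Adipoq, Plin4 and Plin1 were under 1.20 FPKM in WT. In Vil-CREPT-KO 1 the order was different, with Fabp4 ahead of Cidec, and Cfd after them. Together the 10 genes summed to 266.94 and 159.50 FPKM in Vil-CREPT-KO, against 160.29 and 162.26 FPKM in WT. Adipoq, Plin1, Cfd and Car3 alone summed to 41.64 and 0.51 FPKM in Vil-CREPT-KO, against 4.65 and 7.11 FPKM in WT. In a bulk sample, fewer fat cells and less RNA per fat cell cannot be told apart.

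Vil-CREPT-KO 1 was the highest and Vil-CREPT-KO 2 the lowest library for 4 of the 9 genes tested, Adipoq, Cfd, Plin4 and Car3. This order was found in 4.86% of all genes tested. Vil-CREPT-KO 1 was the highest library for 7 of the 9, beside 35.7% of all genes. Adipoq and Plin4 are in both counts and reached the minimum only through Vil-CREPT-KO 1, so the filter fixed their top library. These comparisons carry no test, since they set single libraries against each other and the genes were named with their values known.

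Which Vil-CREPT-KO library was kept decided the call. Without Vil-CREPT-KO 2, the genes Adipoq, Cfd, Fabp4, Car3 and Lpl were called higher, with log2 fold changes of 1.79, 3.16, 2.17, 1.15 and 1.55 and adjusted p values of 0.00270, 0.000668, 0.00172, 0.0264 and 0.00791 by limma. In that setting 3.51% of 11672 genes tested were called higher. Pparg was called lower, at -1.15 with an adjusted p of 0.0160, where 4.29% of genes were called lower. Without Vil-CREPT-KO 1, Cfd and Car3 were called lower instead, at -1.51 and -1.69 with adjusted p values of 0.0351 and 0.0102, where 2.87% of 11550 genes were called lower. Adipoq and Plin4 then fell under the minimum of 1 FPKM and were not tested. Without Vil-CREPT-KO 2 they had reached that minimum only through Vil-CREPT-KO 1. The filter thus fixed their direction in that setting, and Adipoq could only be called higher there. In both settings the single Vil-CREPT-KO library was assumed to vary as much as the WT libraries do. Cfd and Car3 thus had opposite directions by the library kept, whereas Fabp4 and Lpl lay above 0 and Pparg below 0 in both settings.

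**Figure D3:**
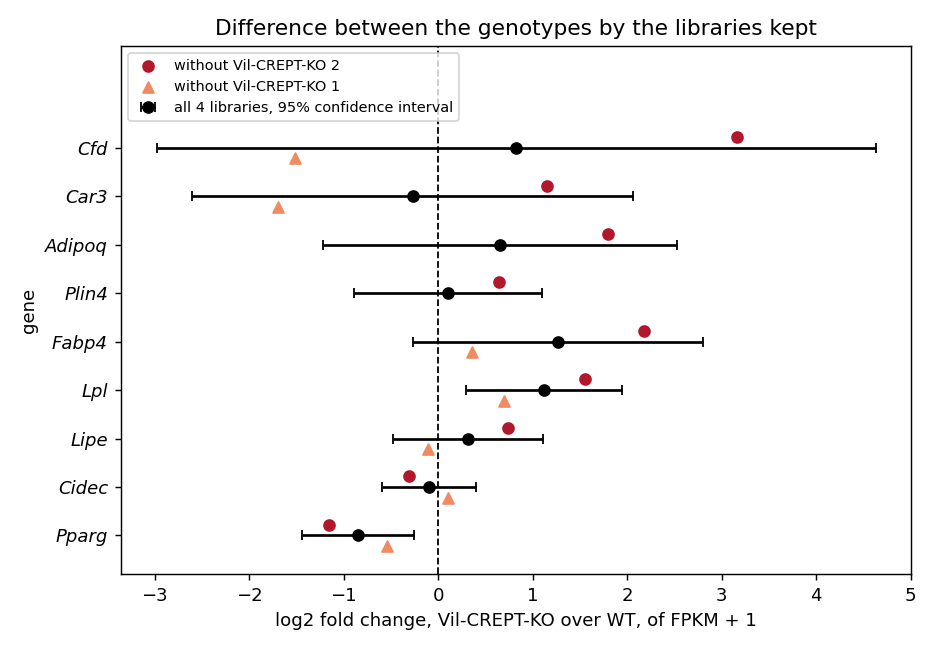
Log2 fold change of FPKM + 1, Vil-CREPT-KO over WT, for the 9 genes tested. Black points show all 4 libraries with their 95% confidence interval, red circles the fit without Vil-CREPT-KO 2 and orange triangles the fit without Vil-CREPT-KO 1 (absent for Adipoq and Plin4, which were not tested there). The circles and triangles of Cfd, at 3.16 and -1.51, lie far to either side of 0, and those of Pparg both lie below it.

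Some further products of fat cells, named after their values were seen, had the same top library. Lep (leptin) had 0.62 and 0 FPKM in Vil-CREPT-KO, against 0 and 0.02 FPKM in WT, or about 36 fragments in Vil-CREPT-KO 1 and at most 1 in any other library. Retn (resistin) had 2.27 and 0 FPKM in Vil-CREPT-KO, against 0.38 and 0.78 FPKM in WT. Scd1, the desaturase that makes oleate, had 13.55 and 0.71 FPKM in Vil-CREPT-KO, against 3.18 and 2.52 FPKM in WT. Lep and Retn were listed at 0 in Vil-CREPT-KO 2, where Adipoq was at its lowest too. Hp (haptoglobin), also known from the liver, had 47.72 and 0.92 FPKM in Vil-CREPT-KO, against 0.37 and 0.59 FPKM in WT, so that only Vil-CREPT-KO 1 stood out. Of the 22 listed adipocyte-enriched genes in the table, 12 were highest in Vil-CREPT-KO 1 and 6 lowest in Vil-CREPT-KO 2. Over all genes tested these shares were 35.7% and 21.5%, but the 22 include genes too low to be tested. Others of the 22 were higher in WT. Retsat had 7.31 and 13.91 FPKM in Vil-CREPT-KO, against 24.64 and 36.03 FPKM in WT. Cidea had 0.86 and 1.13 FPKM in Vil-CREPT-KO, against 2.64 and 2.23 FPKM in WT. Of the 22, 11 were tested and 0 were called, with a median log2 fold change of -0.003 beside 0.06 over all genes. Ucp1, the defining gene of brown fat, had 0.03 FPKM in both Vil-CREPT-KO libraries, against 0.03 and 0 FPKM in WT.

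Other genes for handling fat were described by list. Vil-CREPT-KO 1 was highest and Vil-CREPT-KO 2 lowest, as for Adipoq, for 1 of 15 lipid droplet proteins in the table (Cavin1), 1 of 12 lipolysis genes (Pnpla2), 0 of 14 uptake genes and 3 of 20 synthesis genes (Scd1, Elovl5 and Thrsp). Among 13 tested lipid droplet proteins 0 were called, with a median log2 fold change of -0.14. The most abundant was Cideb, the relative of Cidec known from liver and gut, with 209 and 220 FPKM in Vil-CREPT-KO, against 171 FPKM in both WT libraries. Of 9 tested lipolysis genes 0 were called (median 0.13), and Pnpla2, the triglyceride lipase that acts before Lipe, had 62.21 and 47.68 FPKM in Vil-CREPT-KO, against 50.65 and 48.75 FPKM in WT. Of 11 tested genes for uptake of fatty acids and glucose 0 were called (median -0.37). Slc27a4, a fatty acid transporter of the gut, had 70.54 and 70.65 FPKM in Vil-CREPT-KO, against 113.61 and 88.16 FPKM in WT.

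Of 18 tested genes for making fatty acids and triglyceride, 1 was called lower and 0 higher, with a median of -0.16. It was Me1, malic enzyme, which supplies NADPH, with 12.20 and 16.88 FPKM in Vil-CREPT-KO, against 38.10 and 35.43 FPKM in WT (log2 fold change -1.30 ± 0.19 SE, adjusted p 0.0472). Of 7 other adipokines and secreted products tested, 1 was called lower, Rbp4, the retinol carrier of plasma, with 1.21 and 1 FPKM in Vil-CREPT-KO, against 4.11 and 3.89 FPKM in WT (log2 fold change -1.25 ± 0.15 SE, adjusted p 0.0281). Both genes were lower in both Vil-CREPT-KO libraries, the one rich and the one poor in Adipoq, but Me1 lost its call in 8 of 15 alternative settings and Rbp4 in 5 of 14. Among 14 tested transcription factors of fat cell formation 0 were called (median 0.12), and of 11 tested PPAR family members and partners 0 were called (median 0.05). Rxra, the partner with which Pparg binds DNA, had 24.63 and 24.54 FPKM in Vil-CREPT-KO, against 25.21 and 23.28 FPKM in WT, a difference within the spread.

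Relatives of the 10 genes showed how far a family name predicts a pattern. Of 3 tested fatty acid-binding proteins 0 were called. Fabp1, the form of liver and gut, had 2177 and 2724 FPKM in Vil-CREPT-KO, against 1024 and 1318 FPKM in WT, and Fabp2, the gut form, had 375 and 387 FPKM, against 375 and 423 FPKM in WT. Neither had the order of Fabp4, in which Vil-CREPT-KO 1 stood far above the rest. Of 6 tested carbonic anhydrases other than Car3, 1 was called lower, Car8, a relative without the enzyme activity (log2 fold change -1.53 ± 0.16 SE, adjusted p 0.0209), a call lost in 5 of 14 alternative settings. Of 4 tested lipase relatives of Lpl 0 were called. The most abundant, Pnlip, is made by the pancreas, and had 0.18 and 388 FPKM in Vil-CREPT-KO, against 818 and 256 FPKM in WT, an order that Lpl did not have.

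Markers of other cells that could come with fat or vessels moved with some of these results. All 13 blood vessel endothelium genes were highest in Vil-CREPT-KO 1, as were 35.7% of all genes tested. The 13 summed to 130 and 72.9 FPKM in Vil-CREPT-KO, against 33.9 and 58.0 FPKM in WT, with none at 0. Of the 12 tested, 1 was called higher, Tie1, a receptor of vessel cells, with 14.22 and 8.41 FPKM in Vil-CREPT-KO, against 2.21 and 2.66 FPKM in WT (log2 fold change 1.80 ± 0.26 SE, adjusted p 0.0455 by limma), a call lost in 6 of 15 alternative settings. Over all genes tested, 2.07% were called in either direction. All 12 macrophage genes were also highest in Vil-CREPT-KO 1, and of 11 tested 0 were called. Their sums were 1271 and 1018 FPKM in Vil-CREPT-KO, against 763 and 738 FPKM in WT. Most of each sum was Lgals3 alone, with 739 and 622 FPKM in Vil-CREPT-KO, against 498 and 407 FPKM in WT. With every tested gene scaled to its own WT level, the macrophage median was 189% in Vil-CREPT-KO 1 and 137% in Vil-CREPT-KO 2. It was 94.3% in WT 1 and 106% in WT 2. Vessel cells and macrophages are known to make Fabp4 and Lpl, and in both lists Vil-CREPT-KO 2 also summed above both WT libraries. This was not particular to them. Lymphatic genes summed to 84.7 and 66.0 FPKM in Vil-CREPT-KO, against 33.7 and 51.7 FPKM in WT. Colon genes summed to 637 and 355 FPKM in Vil-CREPT-KO, against 238 and 241 FPKM in WT. Both Vil-CREPT-KO libraries lay above both WT libraries for 31.9% of all genes tested. The part of vessel cells and macrophages in the levels of Fabp4 and Lpl was not tested.

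The lining of the gut's outer surface and of its mesentery had an order like that of Adipoq in part. Of 10 mesothelium genes, 7 were highest in Vil-CREPT-KO 1 and 8 lowest in Vil-CREPT-KO 2, beside 35.7% and 21.5% of all genes tested. None of the 10 was at 0, and 0 of 8 tested were called. Their median level was 147% of the WT mean for Vil-CREPT-KO 1 and 42.5% for Vil-CREPT-KO 2, against 109% for WT 1 and 91.4% for WT 2. Upk3b, a defining marker, had 7.37 and 2.16 FPKM in Vil-CREPT-KO, against 6.30 and 5.19 FPKM in WT. The list's sums of 2612 and 2089 FPKM in Vil-CREPT-KO, against 1765 and 1750 FPKM in WT, are nearly all Krt19, which the gut epithelium makes as well. Fat stroma genes, 11 tested and 0 called, summed to 773 and 542 FPKM in Vil-CREPT-KO, against 676 and 579 FPKM in WT. The largest part of each sum was Ly6a, with 269 and 190 FPKM in Vil-CREPT-KO, against 376 and 231 FPKM in WT. By the median of the tested genes, each scaled to its own WT level, Vil-CREPT-KO 2 was not lowest. That median was 164% in Vil-CREPT-KO 1, 124% in Vil-CREPT-KO 2, 89.3% in WT 1 and 111% in WT 2. Smooth muscle genes, 10 tested and 0 called, had medians of 72.2% and 56.0% in Vil-CREPT-KO, against 78.9% and 121% in WT, all relative to the WT mean. Their sums were 1087 and 729 FPKM in Vil-CREPT-KO, against 885 and 1373 FPKM in WT. Of the 10, 2 were highest in Vil-CREPT-KO 1 and 8 in WT 2. Lymphatic genes (7 tested), brown fat genes (4 tested) and skeletal muscle genes (3 tested) gave 0 calls. Of 7 colon genes tested, only Muc1, a mucin that the stomach makes as well, was called. It was lower (log2 fold change -4.06, adjusted p 0.0472 by limma), a call lost in 8 of 15 alternative settings. The colon list itself leaned higher, with a median log2 fold change of 1.16. Besides Muc1, only Slc26a3 lay below 0, at -1.01. The part of these tissues in the levels of the adipocyte genes was not tested.

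**Figure D4:**
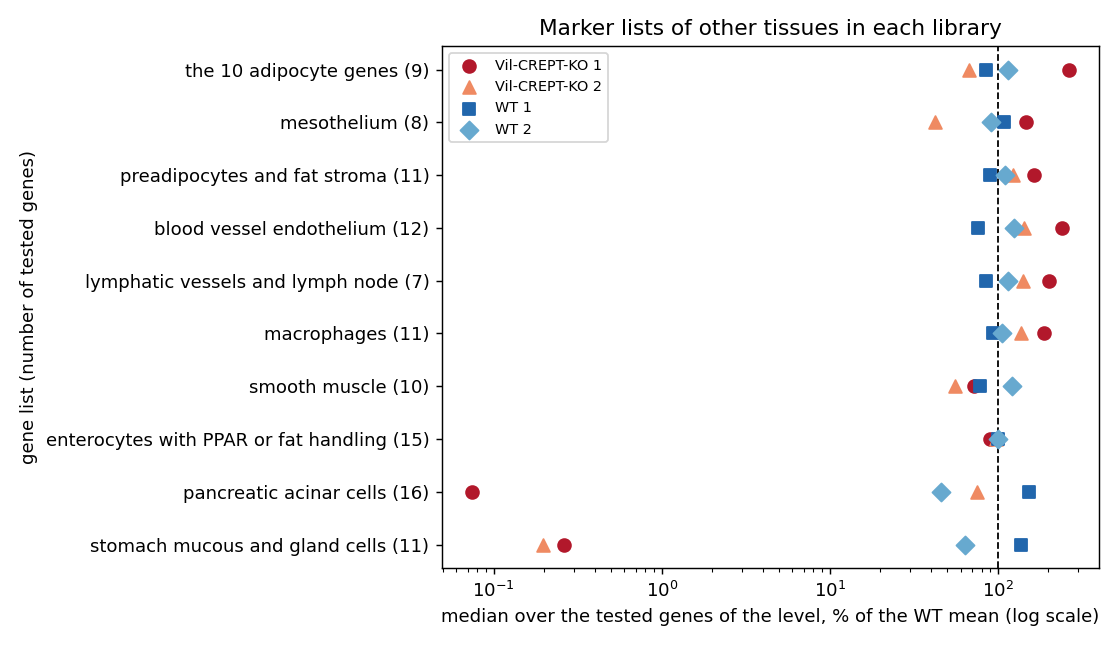
Median level, over the tested genes of each list, in percent of the WT mean of each gene (log scale, dashed line at 100%), for each of the 4 libraries. The adipocyte genes stand at 264% in Vil-CREPT-KO 1 and 67.7% in Vil-CREPT-KO 2, against 85.1% and 115% in WT. Cidec and Pparg lay below their WT means in Vil-CREPT-KO 1, and Fabp4 and Lpl above theirs in Vil-CREPT-KO 2. The pancreatic genes stand at 0.0742% in Vil-CREPT-KO 1 and the enterocyte genes between 89.8% and 100.2%. The adipocyte and enterocyte medians are over genes that went either way.

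The absorptive cells of the gut handle dietary fat. Of 15 tested enterocyte genes 0 were called, with a median log2 fold change of -0.06, and relative to the WT mean their medians were 89.8% and 97.1% in Vil-CREPT-KO, against 100.2% and 99.8% in WT. Single genes of the list, named after their values were seen, went either way. Alpi, the alkaline phosphatase of the brush border, had 577 and 2514 FPKM in Vil-CREPT-KO, against 3207 and 2887 FPKM in WT, and Sis, sucrase-isomaltase, had 111 and 116 FPKM, against 37.7 and 55.2 FPKM in WT.

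Likeness between genes was measured as the root mean square distance between their log2(FPKM + 1) profiles over the 4 libraries, each centred on its mean. It describes 4 libraries only. Adipoq was nearest to Fabp4 among the 9 others, at 0.38, then to Car3 and Plin4, both at 0.52, and farthest from Pparg, at 1.27. Cidec and Pparg lay 0.38 apart. Plin1 and Lipe were the closest pair, at 0.14. Plin1 had at most 0.50 FPKM in any library, so adding 1 flattens its profile and its distances say little of its pattern. Cidec lay 0.38 from Plin1 too, although Plin1 was highest in Vil-CREPT-KO 1, where Cidec was lowest. The genes outside the set nearest to the mean profile of Adipoq, Plin1 and Cidec were Csf1, Slc52a3, Cd248, a gene listed without a symbol, Fmnl2, Gsn, Vopp1, Gstp3, Capn2 and Anxa8, at 0.03 to 0.06. That mean profile spans only 0.80 on the log2 scale, against 2.28 for Adipoq alone, so these genes are a loose match to Adipoq itself. Csf1, for example, had 5.86 and 2.77 FPKM in Vil-CREPT-KO, against 3.16 and 3.03 FPKM in WT.

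Nearest to Adipoq alone, a search added after the values were seen, were Slpi, Slc6a14, Cyp2e1, 2610528A11Rik, Serpina3m, Igfbp5, Lrg1, Mt2, Clca3a1 and Scd1, at 0.23 to 0.33. Cyp2e1, which fat and liver express, had 3.56 and 0.16 FPKM in Vil-CREPT-KO, against 0.94 and 1.16 FPKM in WT, the order of Adipoq in all 4 libraries. Slpi, a protease inhibitor of mucosal surfaces, had 55.94 and 17.14 FPKM in Vil-CREPT-KO, against 20.16 and 20.38 FPKM in WT. High levels in Vil-CREPT-KO 1 were thus shared by genes outside the fat cell.

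Little sequence is shared with other genes. Of the 50-base words in their transcripts, 0% were shared with another gene for 8 of the 10, 0.172% for Plin1 and 1.14% for Lpl. Plin4 shares 17 exonic bases with Hdgfl2 on the opposite strand.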

How the data were processed

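Total RNA was extracted with Trizol from the 4 irradiated intestines and sequenced on a BGISEQ-500. The authors used Bowtie2 to map clean reads onto GRCm38.p6 reference transcripts, computed levels with RSEM and deposited FPKM values rounded to 2 decimals. The submitters' processing notes also name HISAT. The study's methods call the 2 libraries of a genotype biological replicates, and the labels say nothing more of their source.

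The deposited FPKM are not counts and whole reads could not be recovered, so no count model was used, although the study tested with DESeq2. Values were tested as log2(FPKM + 1) with limma 3.58.1 in R 4.3.3, with a mean-variance trend, on 11621 genes whose mean reached 1 FPKM, two-sided, with Benjamini-Hochberg adjustment over all of them. Calls needed an adjusted p under 0.05 together with a log2 fold change beyond 1 either way. An exact permutation test of 2 against 2 libraries cannot go below p = 0.333 and was not used. Alternatives changed the pseudocount, the filter, the scaling, the variance model, the replicate block and the libraries kept.

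The 10 genes and 23 lists of related genes and cell type markers were chosen with earlier results of these data known. The genes named were the 10, Rprd1b, up to 3 called genes of a list or, where none was called, up to 2 of its most abundant, and the 10 nearest profiles. Others are marked as named after their values were seen, or stand as markers or relatives. Motifs and profile distances were computed with Python 3.11.15 and pandas 2.3.3.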

Additional observations from a re-analysis of the deposited data

How the results depend on the processing

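None of the 9 adipocyte genes tested was called with all 4 libraries under any alternative. Leaving out 1 library in turn gave 0 to 6 called members, with 2 without Vil-CREPT-KO 1 and 6 without Vil-CREPT-KO 2. Over all genes, 241 were called, against 141 where the pseudocount was 5 and 78 where low values were not filtered, and 4 to 911 with 1 library left out. The labels number the replicates but do not say that equal numbers share an animal or a day, and the deviations of replicate 1 from 2 correlated at -0.26 between the genotypes. With the replicate number as a block 122 genes were called, and with crossed numbers, a setting added after the data were seen, 346, with 0 of the adipocyte genes in either.

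The direction turned as follows. With 1 library left out in turn, log2 fold changes ran between -1.51 and 3.16 for Cfd, -0.30 and 0.11 for Cidec, -0.11 and 0.74 for Lipe, -1.69 and 1.15 for Car3, and -0.081 and 0.65 for Plin4, and the median of the members between -0.11 and 1.15. The lower end came without Vil-CREPT-KO 1 for Cfd, Lipe, Car3 and the median and without WT 1 for Plin4, and the upper end of Cidec came without Vil-CREPT-KO 1. Car3 was 0.038 on the log2 scale once the pseudocount was 5. Rescaling each library without the stomach and pancreatic genes moved the median of all genes to -0.06, against 0.06, and turned no member. The causes were not tested, beyond the libraries left out themselves. With 2 libraries a group and about 1 to 4 fragments of Adipoq, Plin1, Cfd and Car3 in Vil-CREPT-KO 2, changes in these genes were not detectable unless they exceeded the spread within the genotype.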

Other observations

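Some genes outside the 10 shared the profile of Fabp4 more closely than any of the other 9 adipocyte genes did. The search was added after the values were seen and describes 4 libraries. Mmp3, a matrix protease, lay 0.05 from Fabp4 and had 19.97 and 4.44 FPKM in Vil-CREPT-KO, against 2.81 and 3.97 FPKM in WT. Lcn2, an iron-binding protein of mucosal defence, lay 0.09 away and had 46.59 and 10.66 FPKM in Vil-CREPT-KO, against 6.95 and 9.85 FPKM in WT. Ackr1, a marker of venules, lay 0.17 away and had 8.03 and 2.42 FPKM in Vil-CREPT-KO, against 1.25 and 1.94 FPKM in WT. Lpl was the nearest adipocyte gene to Fabp4, at 0.35.

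Pparg had neighbours of another kind. Alcam, an adhesion molecule, lay 0.05 from it and had 10.48 and 16.03 FPKM in Vil-CREPT-KO, against 26.91 and 23.86 FPKM in WT. Slc11a2, the iron importer of the duodenum, lay 0.08 away and had 6.65 and 10.13 FPKM in Vil-CREPT-KO, against 16.72 and 17.24 FPKM in WT. Both had the order of Pparg, with Vil-CREPT-KO 1 lowest.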
